A study of Homo sapiens with 9 samples.

Results

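The 10 heat shock chaperone genes, HSPA1A, HSPA1B, HSPA8, HSP90AA1, HSP90AB1, HSPD1, HSPE1, HSPB1, DNAJB1 and HSPH1, were followed across 9 RNA sequencing libraries of LAPC4, a human prostate cancer cell line. They were taken by gene symbol from the deposited counts, and each of the 10 had 1 row among 60325 gene rows. All 10 passed the filter on low counts, as did 16796 genes in all. The libraries formed 3 groups of 3, all harvested at day 30 from cells kept in medium with 15% fetal bovine serum. Control libraries carry NT in their titles, and the labels name no selection antibiotic for them. Libraries labelled UGT2B28 knockdown came from cells selected with puromycin at 3 ug/mL, and libraries labelled UGT2B28 rescue, titled KD4OE, from cells selected with G418 at 1 mg/mL. UGT2B28 encodes an enzyme that attaches glucuronic acid to steroids, androgens among them. The antibiotic and the label change together, so their effects cannot be told apart. The labels do not say whether the 3 libraries of a group came from separate cultures or whether the lines were clones, and the spread that p-values measure here is that between libraries, which may be technical.

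Heat shock proteins are chaperones, proteins that bind unfolded or partly folded proteins and keep them from aggregating. HSP70 proteins bind short exposed stretches and release them in a cycle driven by ATP, with J-domain proteins such as DNAJB1 bringing the client and HSP110 proteins such as HSPH1 exchanging the nucleotide. HSP90 proteins act later, on nearly folded clients that include many kinases. HSPB1 holds unfolded proteins without using ATP, and HSPD1 with its lid HSPE1 forms a folding chamber in mitochondria. Under stress, heat shock factor 1 binds heat shock elements, runs of alternating GAA and TTC units in promoters, and raises transcription of several of these genes.

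The check on the labels came first. UGT2B28 had 44, 50 and 76 counts in control, 63, 70 and 28 in knockdown-labelled and 1139, 1062 and 539 in rescue libraries. Its log2 difference was -0.04 (SE 0.349, adjusted p = 0.957) for knockdown-labelled minus control and 3.66 (SE 0.332, adjusted p = 0.00126) for rescue minus knockdown-labelled, by edgeR's quasi-likelihood test. In CPM, defined below, UGT2B28 spanned 5.10 to 7.80 in control and 3.05 to 8.48 in knockdown-labelled libraries. Library 3 of the knockdown-labelled group lay below every control library, and library 1 above every one. The knockdown was therefore not seen in the group mean of UGT2B28 RNA. The interval of that difference, -0.81 to 0.72, leaves room for a change in either direction. The knockdown-labelled libraries are named here by their label. The prostate luminal markers KLK2, KLK3, HOXB13, FOXA1, EPCAM, KRT8 and KRT18 were present in every library, with FOXA1 between 703 and 816, KRT8 between 752 and 1610 and KLK2 between 215 and 1088 CPM (counts per 1000000 of the library total, scaled here by the TMM method). Of 7 immune and endothelial markers, PTPRC and MS4A1 had 0 counts in all 9 libraries, CD3E, PECAM1 and CDH5 at most 7, VWF 10 to 46 and CD68 27 to 115, and the 7 summed to 6.12 to 13.5 CPM. Libraries held 8132206 to 14185252 gene counts. Mitochondrial genes took 7.62% to 8.57% of counts in control, 5.79% to 7.90% in rescue, and 15.1%, 15.8% and 10.2% in knockdown-labelled libraries 1, 2 and 3.

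The promoters of the members are shown first because they carry the letters that heat shock factors are known to bind. RefSeq windows on GRCh38.p14, from 250 bases before to 50 after each annotated start, were found for 10 of 10 members, 16 windows in all. A motif of 3 units was searched as GAANNTTCNNGAA or TTCNNGAANNTTC, which are each other's reverse complement, and a motif of 2 units as GAANNTTC or TTCNNGAA, each its own reverse complement. Both strands are thus covered, and every 3-unit match holds 2-unit matches inside it. The 3-unit letters were found for 4 of 10 members, HSPA8, HSP90AA1, HSP90AB1 and HSPD1, against 0.608% of all 27305 genes with a window and 0.49% of all 35116 windows. The 2-unit letters were found for 8 of 10, those 4 with HSPA1A, HSPA1B, HSPB1 and DNAJB1, against 16.2% of all genes and 13.5% of all windows. The windows of HSPE1 and HSPH1 held neither. The HSPE1 window (chr2:197500129-197500428) begins past the end of the HSPD1 window with the match (chr2:197499791-197500090) and so does not cover it. Letters outside a gene's own windows were not searched. A match is a string of letters and not a measured site.

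The 4 upstream stretches with only 2-unit matches are printed because their genes had the highest spread among knockdown-labelled libraries. They run from 250 bases upstream to the base before the start, 5' to 3' on the gene's strand, with the matches in capitals. HSPA1A is from chr6:31815293-31815542 (plus strand), HSPA1B from chr6:31827488-31827737 (plus), DNAJB1 from chr19:14518398-14518647 (minus, the second of its 3 windows) and HSPB1 from chr7:76302423-76302672 (plus). The whole windows of HSPA1A and HSPA1B matched at 277 of 301 aligned columns, 92%.
HSPA1A: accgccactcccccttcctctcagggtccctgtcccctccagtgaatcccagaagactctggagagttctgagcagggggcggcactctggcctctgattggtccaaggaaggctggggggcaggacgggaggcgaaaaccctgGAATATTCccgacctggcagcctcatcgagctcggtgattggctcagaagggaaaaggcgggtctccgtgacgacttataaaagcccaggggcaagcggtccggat
HSPA1B: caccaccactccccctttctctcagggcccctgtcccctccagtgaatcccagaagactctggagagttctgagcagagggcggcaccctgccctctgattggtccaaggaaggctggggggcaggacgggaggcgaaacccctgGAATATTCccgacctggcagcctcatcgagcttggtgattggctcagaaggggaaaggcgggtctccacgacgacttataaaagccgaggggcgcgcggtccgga
DNAJB1: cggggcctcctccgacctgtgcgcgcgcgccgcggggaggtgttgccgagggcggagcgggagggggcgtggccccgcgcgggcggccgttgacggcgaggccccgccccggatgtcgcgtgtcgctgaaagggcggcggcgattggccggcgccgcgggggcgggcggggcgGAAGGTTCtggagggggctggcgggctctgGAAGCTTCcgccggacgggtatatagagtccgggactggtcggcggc
HSPB1: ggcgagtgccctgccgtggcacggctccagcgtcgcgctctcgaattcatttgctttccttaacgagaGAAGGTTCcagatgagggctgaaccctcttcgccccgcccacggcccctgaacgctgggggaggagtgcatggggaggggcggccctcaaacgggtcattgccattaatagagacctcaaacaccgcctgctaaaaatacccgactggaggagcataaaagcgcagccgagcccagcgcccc

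The HSP90 pair is printed for contrast, since both genes had a 3-unit match and were the most abundant members. HSP90AA1 is the second of 2 windows, chr14:102087045-102087294 (minus strand), and HSP90AB1 the third of 3, chr6:44247693-44247942 (plus). The other windows of these 2 genes had no match.
HSP90AA1: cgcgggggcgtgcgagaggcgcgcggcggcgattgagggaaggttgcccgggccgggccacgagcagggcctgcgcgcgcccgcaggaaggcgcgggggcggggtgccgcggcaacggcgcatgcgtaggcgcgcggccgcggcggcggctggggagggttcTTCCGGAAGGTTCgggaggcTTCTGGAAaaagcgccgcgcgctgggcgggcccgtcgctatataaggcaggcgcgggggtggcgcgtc
HSP90AB1: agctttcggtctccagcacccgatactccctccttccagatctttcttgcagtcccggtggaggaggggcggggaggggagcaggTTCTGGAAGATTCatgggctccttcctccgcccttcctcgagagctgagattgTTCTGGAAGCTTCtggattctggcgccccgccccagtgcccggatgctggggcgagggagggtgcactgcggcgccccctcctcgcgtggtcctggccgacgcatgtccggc

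The stress-inducible HSP70 genes HSPA1A (chr6:31815464-31817946, plus strand, GENCODE 29 on GRCh38) and HSPA1B (chr6:31827735-31830255, plus) encode nearly the same protein. HSPA1A stood at 117, 109 and 143 CPM in control, 392, 372 and 62.9 CPM in knockdown-labelled libraries 1, 2 and 3, and 157, 200 and 230 CPM in rescue. Knockdown-labelled libraries 1 and 2 were thus the highest of the 9 and library 3 the lowest, while every rescue library was above every control library. HSPA1B stood at 138, 137 and 175 CPM in control, 302, 293 and 81.2 CPM in knockdown-labelled and 186, 264 and 235 CPM in rescue libraries, in the same arrangement. Within the knockdown-labelled group the highest library was 6.23 times the lowest for HSPA1A and 3.72 times for HSPA1B, against 1.31 and 1.28 times within control. Of 100-base stretches of HSPA1A transcripts, 67.3% also occur in another gene, mostly HSPA1B, so the split of reads between the pair is uncertain. HSPA1A took 45.8%, 44.4% and 45.01% of the pair's counts in control, 56.5%, 55.9% and 43.7% in knockdown-labelled and 45.7%, 43.0% and 49.5% in rescue libraries. An exact two-sided permutation test of these shares gave p = 0.4 for the knockdown-labelled and control groups, 0.3 for rescue and knockdown-labelled and 0.8 for rescue and control, where 3 against 3 allows no p below 0.1.

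HSPA8 (chr11:123057489-123063230, minus strand), the constitutive HSP70, had another order of libraries. It stood at 306, 322 and 308 CPM in control, 323, 348 and 382 CPM in knockdown-labelled and 505, 549 and 343 CPM in rescue libraries. Knockdown-labelled library 3, the lowest for both inducible genes, was the highest of its group for HSPA8. All 3 rescue libraries and all 3 knockdown-labelled libraries lay above all 3 control libraries, although knockdown-labelled library 1 exceeded the highest control by little. No 100-base stretch of HSPA8 occurs in another annotated gene, and its 17 processed pseudogene rows summed to at most 0.379% of its count.

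**Figure D1:**
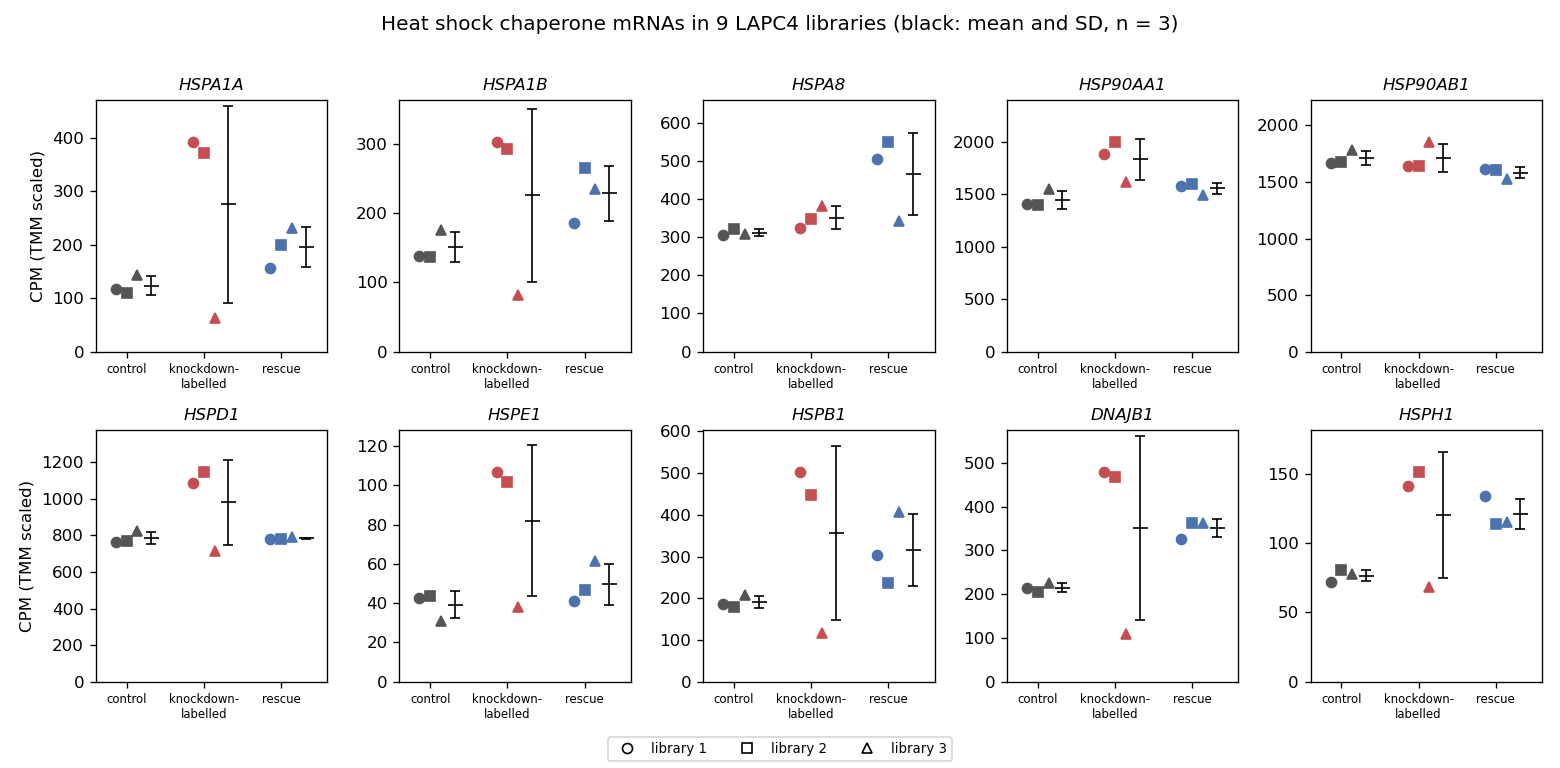
CPM (vertical axis, linear from 0) of each of the 10 chaperone genes, with 1 point per library, in the control, knockdown-labelled and rescue groups; black marks are the mean and SD (n = 3). For HSPA1A, HSPA1B, HSPB1 and DNAJB1, knockdown-labelled libraries 1 and 2 lie highest and library 3 lowest.

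The partners of HSP70 had a similar order of libraries. DNAJB1 (chr19:14514770-14529770, minus strand), the J-domain protein that hands clients to HSP70, stood at 215, 205 and 225 CPM in control, 478, 467 and 109 CPM in knockdown-labelled and 327, 363 and 362 CPM in rescue libraries. HSPH1 (chr13:31134974-31162388, minus), the nucleotide exchange factor, stood at 71.96, 80.3 and 77.5 CPM in control, 141, 151 and 68.4 CPM in knockdown-labelled and 134, 114 and 115 CPM in rescue libraries. For both genes every rescue library was above every control library, and knockdown-labelled library 3 was below all 3 controls. DNAJB1 shares 211 exon bases, 5.75% of its exons, with TECR on the opposite strand, which had at most 72.2% of the DNAJB1 count. TECR spanned 88.5 to 96.5 CPM in control, 79.0 to 154 CPM in knockdown-labelled and 82.0 to 95.1 CPM in rescue libraries. What part of the DNAJB1 count came from TECR reads was not tested. Centred over the 9 libraries, DNAJB1 and HSPA1B differed by a root mean square of 0.133 on the log2 scale, the second closest of all pairs of members.

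HSPB1 (chr7:76302544-76304295, plus strand), the small heat shock protein, stood at 187, 179 and 208 CPM in control, 502, 448 and 117 CPM in knockdown-labelled and 304, 236 and 408 CPM in rescue libraries. It had the widest range within rescue, with library 3 at 1.73 times library 2. Of 7 other small heat shock genes, only CRYAB, a lens crystallin also made in muscle, passed the filter on low counts.

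The cytosolic HSP90 genes were the most abundant members. HSP90AA1 (chr14:102080738-102139699, minus strand), the inducible form, stood at 1406, 1397 and 1548 CPM in control, 1889, 1999 and 1619 CPM in knockdown-labelled and 1578, 1596 and 1494 CPM in rescue libraries. All 3 knockdown-labelled libraries were above all control and all rescue libraries, library 3 included. Its exons share 197 bases with WDR20 on the opposite strand, which had at most 2.13% of its count. HSP90AB1 (chr6:44246166-44253888, plus), the constitutive form, stood at 1672, 1679 and 1780 CPM in control, 1637, 1644 and 1853 CPM in knockdown-labelled and 1613, 1610 and 1525 CPM in rescue libraries. Its 3 rescue libraries lay below all others, by a small margin. Per kb of exon, the ratio of HSP90AA1 to HSP90AB1 was 0.477, 0.472 and 0.494 in control, 0.655, 0.690 and 0.496 in knockdown-labelled and 0.556, 0.563 and 0.556 in rescue libraries. The rescue mean was 0.558 ± 0.00412 (SD, n = 3) and the control mean 0.481 ± 0.0112 (SD, n = 3), an exact two-sided permutation p of 0.1, the smallest possible, and 0.45 after Benjamini-Hochberg adjustment over 9 such tests. The ranges of the ratio in knockdown-labelled and control libraries also did not overlap, with the same p.

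**Figure D2:**
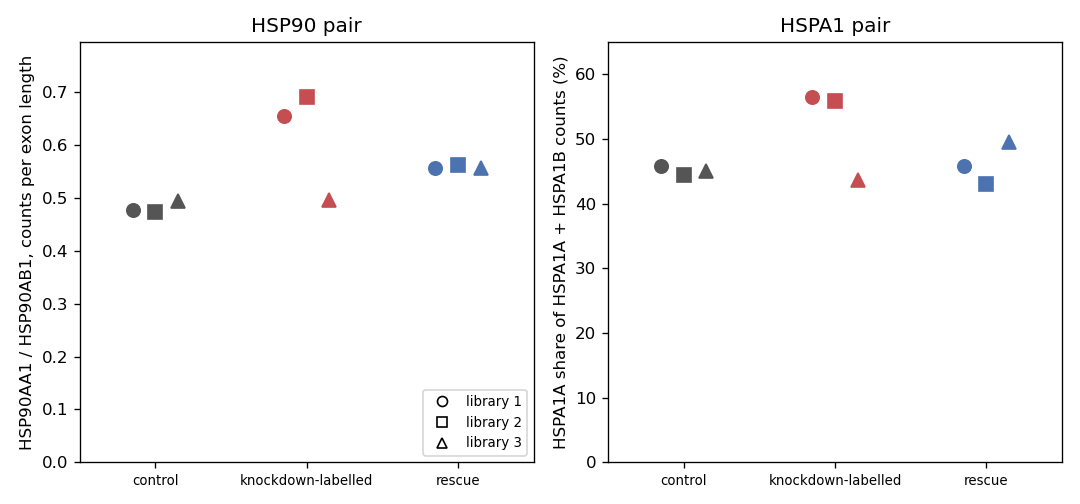
HSP90AA1 over HSP90AB1 per exon length (left) and the share of HSPA1A in the summed HSPA1A and HSPA1B counts in percent (right), both on axes from 0, in the 3 groups with 1 point per library. The HSP90 ratio lies at 0.556 to 0.563 in rescue and at 0.472 to 0.494 in control.

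The mitochondrial pair is encoded head to head on chromosome 2. HSPD1 (chr2:197486581-197516737, minus strand), the barrel of the folding chamber, stood at 762, 771 and 823 CPM in control, 1085, 1146 and 716 CPM in knockdown-labelled and 781, 782 and 789 CPM in rescue libraries. The SD of the rescue libraries was 0.537% of their mean, the smallest such share of any member in any group, and they lay inside the control range. HSPE1 (chr2:197499994-197503457, plus), the lid, stood at 42.6, 43.8 and 31.2 CPM in control, 107, 102 and 38.0 CPM in knockdown-labelled and 41.0, 46.8 and 61.3 CPM in rescue libraries. Knockdown-labelled libraries 1 and 2 were the highest of the 9 for both genes, while library 3 lay within the control range for HSPE1 and below it for HSPD1. The ratio of HSPD1 to HSPE1 per kb was 8.32, 8.20 and 12.3 in control, 4.73, 5.25 and 8.78 in knockdown-labelled and 8.88, 7.79 and 5.99 in rescue libraries, with exact two-sided permutation p of 0.3, 0.4 and 0.4 for the 3 comparisons. The 26 processed pseudogene rows of HSPE1 summed to at most 9.46% of its count, against 0.517% for the 18 of HSPD1. Of 100-base stretches, 13.2% for HSPE1 and 4.93% for HSPD1 also occur in another gene, which makes the HSPE1 level and the ratio less certain. HSPE1 shares 281 exon bases with HSPD1 on the opposite strand. At the mean HSPD1 level per kb those bases would hold 52.0 CPM in control, against 39.2 CPM counted for HSPE1. In the knockdown-labelled group they would hold 65.0 CPM against 82.1 counted, and in rescue 51.9 against 49.7. The strand option of the counting was not stated in the labels or notes. A check used 86 antisense genes. Each had at least 80% of its exon bases in exons of an opposite-strand coding gene of mean count 1000 or more. Their median count density was 2.76 times that of the coding gene, and in 78 of these pairs it was above 0.5 times. Reads over shared bases thus cannot be assigned to either gene. How far the strand option affected counts outside shared bases, and so the levels of all members, was not tested.

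Per kb of exon, the order of levels in control was HSP90AB1 (574 CPM per kb), HSP90AA1 (276), HSPD1 (185), HSPB1 (117), HSPA8 (64.3), HSPA1B (59.6), DNAJB1 (58.5), HSPA1A (49.6), HSPE1 (19.8) and HSPH1 (9.13). Neighbours from HSPA8 to HSPA1A overlapped between libraries, and all other neighbours did not. In the knockdown-labelled libraries the neighbours from HSPD1 to HSPA8 overlapped, with HSPA8 in the eighth place. In rescue the order began with the same 2 genes, HSPB1 (193) and HSPD1 (185) overlapped, and HSPA8 (96.0), DNAJB1 (95.4), HSPA1B (90.6) and HSPA1A (78.8) overlapped with their neighbours.

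The first comparison asked how the knockdown-labelled libraries differ from control. All 10 members had a positive log2 difference, with a median of 0.62 against 0.02 over all genes tested, but 0 of 10 passed edgeR's quasi-likelihood test at an adjusted p under 0.05, where 0.00595% of all genes did. With library size alone as scaling, 8 of 10 were positive with a median of 0.31, HSPA8 and HSP90AB1 being below 0. That scaling also moved the median of all genes below 0, to the value given in the closing section. An unadjusted p under 0.05 was reached by 4 members, HSPA1A, HSP90AA1, HSPE1 and HSPH1, against 19.1% of all genes. DESeq2, whose number of calls over all genes is given below with the other chaperone genes, called 1, HSPE1. HSPE1 had the smallest p, with a log2 difference of 1.07 (SE 0.327, 95% interval 0.35 to 1.79, adjusted p = 0.127). HSPA1A had the largest difference, 1.16 (SE 0.490, 95% interval 0.08 to 2.24, adjusted p = 0.233). For HSP90AB1 the difference was 0.00 with an interval of -0.30 to 0.30. The other 7 lay between 0.17 for HSPA8 and 0.90 for HSPB1, with adjusted p from 0.183 to 0.628. Groups did not overlap for 2 members, HSPA8 and HSP90AA1, both higher, where 11.0% of all genes were higher without overlap.

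Library 3 of the knockdown-labelled group is described apart because the members' own values differed there. Calls without it, or with it alone, therefore describe that split wherever this group is compared, and do not test it. The calls differed with and without library 3. Without it, 8 of 10 members passed, all higher, and 18.1% of all genes did: DNAJB1 by 1.14 (adjusted p = 4.16e-08), HSPA1A by 1.63, HSPH1 by 0.93, HSPE1 by 1.41, HSPB1 by 1.31, HSPA1B by 0.99, HSPD1 by 0.51 and HSP90AA1 by 0.42 on the log2 scale, edgeR's test. HSPA8 and HSP90AB1 did not pass. When library 3 stood alone for its group, on the assumption that a lone sample varies like the others, 4 members passed in the other direction, where 9.07% of all genes were lower. These were DNAJB1, which fell by 1.00 (adjusted p = 1.40e-04), HSPA1A by 1.00, HSPA1B by 0.91 and HSPB1 by 0.73 on the log2 scale. The share of mitochondrial counts was 15.1% and 15.8% in libraries 1 and 2 and 10.2% in library 3. The 7 luminal markers had a median of 0.52, 0.50 and -0.51 in libraries 1, 2 and 3 on the log2 scale relative to the control mean, and summed to 6171, 6098 and 3396 CPM, against 4138 to 5110 CPM in control. UGT2B28 stood at 3.05 CPM in library 3 and at most 8.48 CPM in libraries 1 and 2, against 5.10 to 7.80 CPM in control. The part of the mitochondrial share, the luminal markers or UGT2B28 in the result was not tested. With all 9 libraries but no filter on low counts, 6 members passed, all higher: HSPA1A, HSPA1B, HSPE1, HSPB1, DNAJB1 and HSPH1. Of all genes 1045 passed then, 733 higher and 312 lower.

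**Figure D3:**
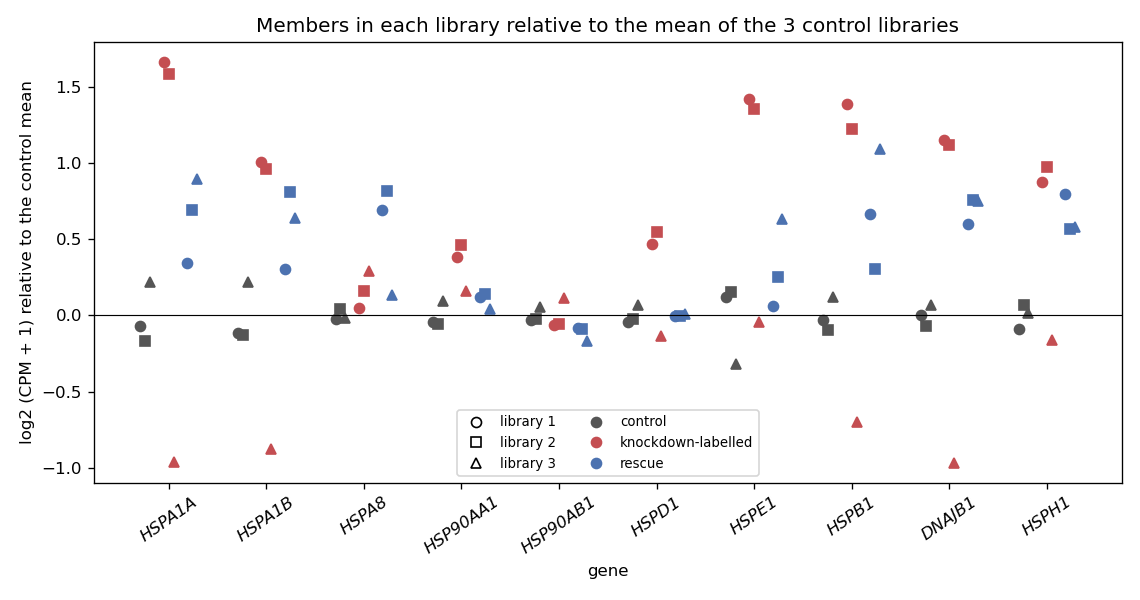
Log2 of CPM with a pseudocount of 1 (vertical axis) for each gene in each library, relative to the mean of the 3 control libraries; colours are groups and shapes are library numbers. Medians over the 10 members were taken from log2 CPM with a prior count of 2, less the mean log2 of control, and so differ slightly from the points. They were 0.95 and 0.98 in knockdown-labelled libraries 1 and 2, -0.15 in library 3, and 0.33, 0.44 and 0.62 in the rescue libraries.

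The second comparison, rescue minus knockdown-labelled, set the libraries with raised UGT2B28 RNA against those labelled knockdown. Again 0 of 10 members passed edgeR's test, where 9.83% of all genes did. The differences were positive for 3 members and the median was -0.14, against -0.00 over all genes. An unadjusted p under 0.05 was reached by 2 members, HSPA8 and HSPE1, against 28.3% of all genes; DESeq2 and limma-voom called 0 of the 10. HSPA8 differed by 0.41 (95% interval 0.03 to 0.78, adjusted p = 0.148) and HSPE1 by -0.73 (95% interval -1.44 to -0.02, adjusted p = 0.169). HSPA1B, DNAJB1 and HSPH1 differed by 0.02, -0.01 and 0.01, with intervals of -0.81 to 0.85, -0.88 to 0.87 and -0.51 to 0.53, which leave room for changes in either direction. HSP90AA1 and HSP90AB1 were lower without overlap, 2 of 10, where 14.0% of all genes were. Without knockdown-labelled library 3, 9 members passed: HSPA8 rose by 0.47 (adjusted p = 0.0102), where 18.6% of all genes rose, and the other 8, HSP90AB1 not among them, fell by 0.28 to 1.08, where 20.4% did. With library 3 alone, 5 members passed, all higher, where 12.7% of genes did: DNAJB1 by 1.70, HSPA1A by 1.66, HSPA1B by 1.51, HSPB1 by 1.45 and HSPH1 by 0.85 on the log2 scale. With scaling by library size alone the median over members was 0.15 rather than -0.14, and over all genes the median was 0.24.

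The third comparison, rescue minus control, did not rest on the knockdown-labelled values, but shared their spread in the fit of all 9 libraries. In that fit 0 of 10 members passed edgeR's test, where 0.149% of all genes did. An unadjusted p under 0.05 was reached by 2 members, HSPA8 and HSPH1, against 10.5% of all genes; DESeq2 and limma-voom called 0 of the 10. The 6 members HSPA1A, HSPA1B, HSPA8, HSPB1, DNAJB1 and HSPH1 were higher in every rescue than in every control library, where 12.8% of all genes were. HSP90AB1 was lower in every rescue library, where 13.6% were, and the other members overlapped. The median difference was 0.59 over the 10 members against -0.01 over all genes. HSPA8 differed by 0.58 (SE 0.170, 95% interval 0.20 to 0.95, adjusted p = 0.244) and HSPH1 by 0.66 (95% interval 0.13 to 1.18, adjusted p = 0.355). HSPB1 and DNAJB1 differed by 0.72 and 0.71, with adjusted p of 0.588 and 0.586.

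Fitting only the rescue and control libraries changed this call. Then 6 of 10 members passed edgeR's test, all higher, where 3.92% of all genes did. DNAJB1 was higher by 0.71 on the log2 scale (adjusted p = 1.82e-04), HSPH1 by 0.66 (8.46e-04), HSPA1A by 0.67 (0.00751), HSPB1 by 0.73 (0.00852), HSPA1B by 0.61 (0.00983) and HSPA8 by 0.58 (0.0175). HSP90AA1, HSP90AB1, HSPD1 and HSPE1 did not pass. The same 6 passed when all groups were fitted without knockdown-labelled library 3, where 4.52% of genes were higher, and with libraries 1 and 2 of that group left out, where 3.38% were. Knockdown-labelled minus control and rescue minus control share their control libraries, and the first and second comparisons share the knockdown-labelled libraries. Stromal markers summed to 16.8 to 67.7 CPM in control and 35.4 to 116 CPM in rescue libraries, with PDGFRA at 0 to 4 counts. Of the 7, 4 were tested, all with positive differences and a median of 1.34. LUM, a matrix proteoglycan, was 5.01-fold higher in rescue without overlap (log2 2.32, adjusted p = 0.0793 in the fit of 9 libraries), and it alone of the 4 passed when only rescue and control were fitted. Their part in the result was not tested.

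**Figure D4:**
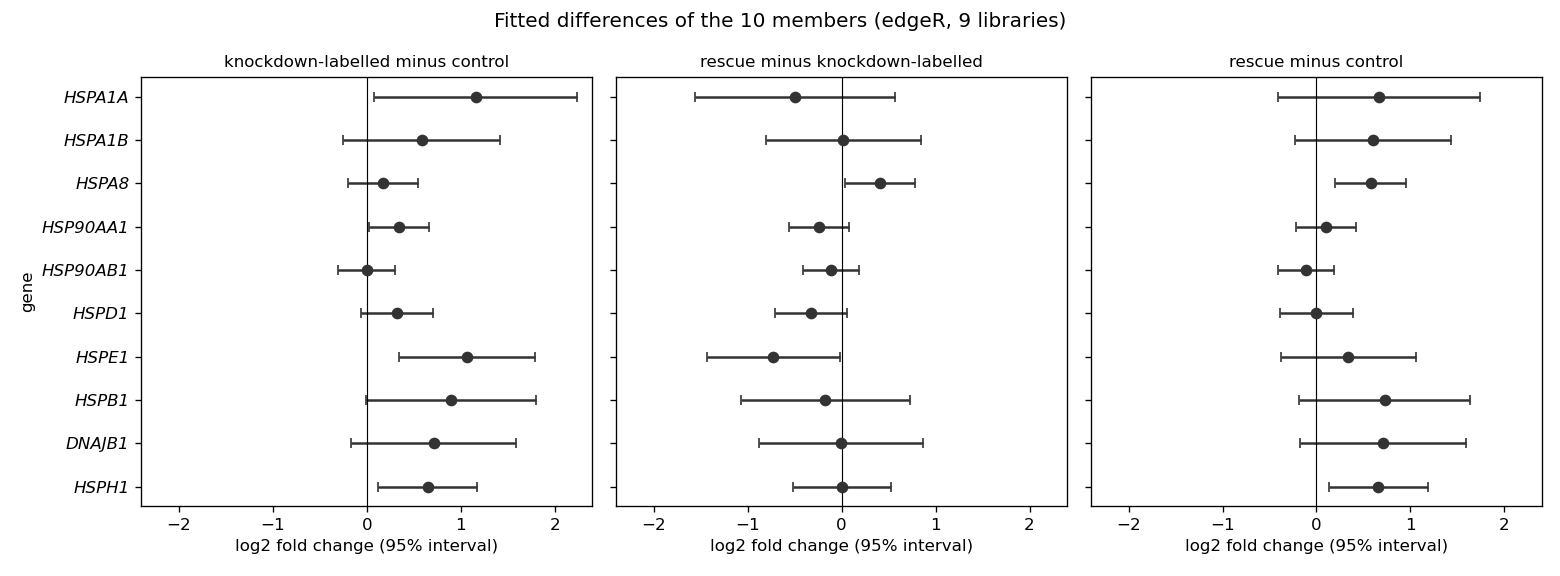
Log2 differences of the 10 members in the 3 comparisons with 95% intervals from edgeR's fit of all 9 libraries. The widest intervals are those of HSPA1A, HSPB1, DNAJB1 and HSPA1B; those of HSP90AB1 and HSP90AA1 are the narrowest.

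The rest of the chaperone system was read from 10 lists of 79 other genes, of which 73 were tested. HSF1, the main heat shock factor, differed by 0.04, -0.03 and 0.01 in the 3 comparisons (adjusted p = 0.926, 0.937 and 0.993). For knockdown-labelled minus control 0 of 73 passed edgeR's test, while DESeq2 called 13, and 996 of all genes, and an unadjusted p under 0.05 was reached by 30, where 19.1% of all genes reached it. The median over the 73 was 0.28, and 0.04 with scaling by library size alone, which also lowered the median of all genes. The smallest p was that of HSPA14, an HSP70-like protein, at 0.60 (adjusted p = 0.0781). In the list of prefoldin, which carries actin and tubulin to the cytosolic chaperonin, it was that of PFDN4, at 0.99 (adjusted p = 0.0824).

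For rescue minus knockdown-labelled 15 of 73 passed, 14 lower and 1 higher, where 5.39% and 4.44% of all genes did. The factor HSF2 fell by 0.83 (adjusted p = 0.0198) and HSBP1, a binding protein of the factors, by 0.79. HSPA14 fell by 0.89 (adjusted p = 0.00866), and HSPA4, an HSP110 relative of HSPH1, by 0.46. BAG2, a regulator of HSP70, fell by 0.96, and the HSP90 partner PPID by 0.72, whereas FKBP5, an HSP90 partner induced by androgen, rose by 0.52 (adjusted p = 0.0486). Of the 8 subunits of the cytosolic chaperonin TRiC 4 fell, among them TCP1 by 0.54, CCT5 by 0.47 and CCT8 by 0.46, and of the 6 prefoldin subunits 3 fell, PFDN4 by 1.23, VBP1 by 0.72 and PFDN1 by 0.64. The mitochondrial import protein DNAJC19 fell by 1.02. Of the 9 J-domain cochaperones and the 10 endoplasmic reticulum chaperones tested, 0 passed. By scaling to library size alone 8 of 73 passed, 3 higher and 5 lower, with 0 of the TRiC list and only PFDN4 of prefoldin among them, and the median over the 73 was 0.06 instead of -0.22. That scaling called 1327 of all genes higher and 230 lower. Without knockdown-labelled library 3 the split of the 73 was 2 higher and 45 lower, where 18.6% and 20.4% of all genes were. Leaving out any 1 of the other 8 libraries left 1 to 9 of the 73, the fewest without rescue library 1. The number of all genes that passed also changed with 1 library left out, as given in the closing section. With knockdown-labelled libraries 1 and 2 left out it was 15 higher and 7 lower, where 12.7% and 6.84% of all genes were. With only the 2 groups fitted 0 of 73 passed, where 0.0426% of all genes did.

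For rescue minus control 0 of 73 other chaperone genes passed, with 7 at an unadjusted p under 0.05, where 10.5% of all genes were, and DESeq2 calling 1, and 326 of all genes. DNAJB4, a J-domain relative of DNAJB1, had the smallest p, at 0.92 (adjusted p = 0.151). The median over the 73 was -0.01, against 0.59 over the 10 members.

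**Figure D5:**
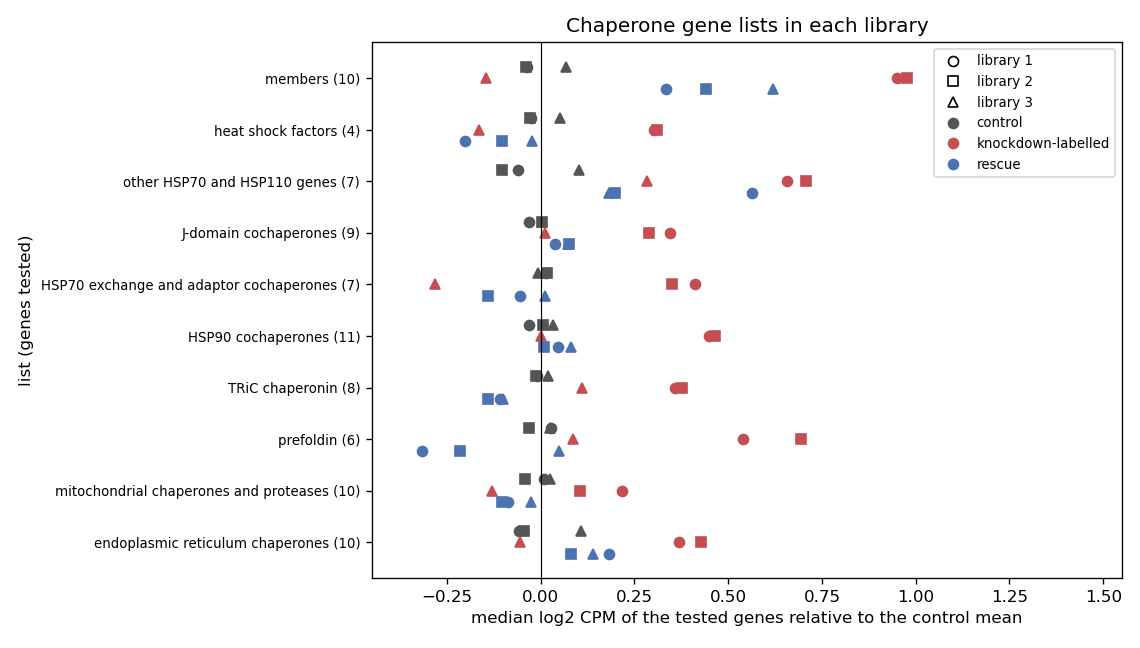
Median log2 CPM of the tested genes on each chaperone list relative to the control mean (horizontal axis), 1 point per library, for the 10 genes described here (members) and the other lists with at least 4 tested genes; colours are groups and shapes are library numbers. In the TRiC list the medians were 0.36 and 0.38 in knockdown-labelled libraries 1 and 2 and 0.11 in library 3, and all 3 rescue libraries lay below 0.

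The genes with the most similar pattern were sought among 9194 protein-coding genes with a mean of at least 10 CPM. The measure was the root mean square difference of centred log2 CPM over the 9 libraries. HSP90AA1, which spanned 0.52 on that scale, was closest to LAPTM4A, a lysosomal membrane protein, at 0.030, then to AZIN1 at 0.038 and SEC22B at 0.042. HSPD1, which spanned 0.68, was closest to TMX2 at 0.043, then to TMEM9B at 0.047 and PSMC1, a proteasome subunit, at 0.050. Among the members, HSP90AA1 and HSPD1 were the closest pair, at 0.115. These distances describe 9 libraries that share depth and scaling.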

How the data were processed

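RNA of 9 LAPC4 libraries was sequenced. The submitters' processing notes list STAR, HTSeq, cutadapt and FastQC, and the hg38 build, without versions, settings or strand option. The authors deposited raw HTSeq read counts, 1 whole number per gene row. The 5 summary rows of each file stayed out of library sizes and tests; reads on no feature were 43.7% to 48.7% of all, ambiguous reads 2.36% to 3.14% and reads aligned to more than 1 place 7.67% to 11.6%.

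The main test was edgeR's quasi-likelihood F test (edgeR 4.0.16, R 4.3.3) after filterByExpr at a minimum count of 10 and TMM scaling, all 9 libraries in 1 fit with 6 residual degrees of freedom, p-values adjusted by Benjamini-Hochberg over all 16796 genes, and a threshold of 0.05. The standard error is the log2 difference divided by the square root of F; intervals hold 95% confidence. CPM are counts per 1000000 of TMM-scaled library size, per kb of GENCODE 29 exon union where stated. Promoters are from RefSeq. Alternatives used DESeq2 1.42.0, limma 3.58.1, other scalings and filters, and left-out libraries. The fit was tested on simulated data.

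The 10 members, the gene lists and the tests were chosen with earlier results of these data known. The rule for names took all members, HSF1 and UGT2B28, and from each other list every gene that passed where 3 or fewer did, otherwise the 3 with the smallest p; where none passed, the gene with the smallest p could be given. The 3 genes closest in pattern were named for HSP90AA1 and HSPD1.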

Additional observations from a re-analysis of the deposited data

How the results depend on the processing

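Over 591 alternative values of the members' differences, 468 kept their direction and their side of the threshold, 69 newly passed it and 54 changed sign. The count of members that passed moved as follows. It is to be read beside the count of all genes under the same settings in the next paragraph, where the main fit tested 16796. For knockdown-labelled minus control it was 6 without a low-count filter, 1 by DESeq2, 8 by limma-voom with quality weights, 4 with knockdown-labelled libraries 1 and 2 left out, and 0 to 8 with 1 library left out. For rescue minus knockdown-labelled it was 2, 0, 6, 5 and 0 to 9 under the same settings, and for rescue minus control 5, 0, 6, 6 and 0 to 6, with 6 when only the 2 groups were fitted. Library 3 of the knockdown-labelled group gave the upper end of each range. The cause was not tested.

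The number of genes that passed went from 1 to 153 (12 higher, 141 lower) by library size alone, 1045 without a filter, 996 by DESeq2, 6527 with quality weights, 0 with only the 2 groups, 2115 without libraries 1 and 2, and 0 to 5691 with 1 left out, for knockdown-labelled minus control. For rescue minus knockdown-labelled 1651 (745 higher, 906 lower) became 1557 (1327 higher, 230 lower) by library size alone, 2636, 2702, 6999, 7, 3619 and 134 to 6745. For rescue minus control 25 became 401, 326, 1590, 962, 977 and 1 to 1276, and 13 by limma-voom. Library size alone moved the median of all genes to -0.21 in the first and 0.24 in the second comparison. Libraries with the same replicate number showed no common deviation (r from -0.355 to 0.078). With so few libraries per group, these correlations cannot decide whether the numbers pair them. With a replicate block 0, 442 and 4 genes and 0 members passed.

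The 54 sign changes, of which 9 passed the threshold, are given on the log2 scale. In knockdown-labelled minus control HSP90AB1 was -0.0041 with DESeq2 size factors, -0.0041 by DESeq2, -6.0e-04 by limma-voom, -0.039 with quality weights, -0.014 without a filter, -0.0059 with a filter of 1 CPM in 3 libraries, -0.0070 with only 2 groups, -0.21 by library size alone (HSPA8 -0.036) and -0.059 to 0.033 with 1 library left out. With libraries 1 and 2 out, HSPA1A was -0.997, HSPA1B -0.91, HSPD1 -0.16, HSPE1 -0.071, HSPB1 -0.73, DNAJB1 -0.999, HSPH1 -0.19 there, and in rescue minus knockdown-labelled HSPA1A 1.66, HSPD1 0.16, HSPE1 0.41, HSPB1 1.45, DNAJB1 1.70. In that comparison library size alone gave HSP90AA1 0.028, HSP90AB1 0.12, HSPB1 0.18, DNAJB1 0.36. DNAJB1 was 1.9e-04 without a filter, 0.0041 with the 1 CPM filter, 0.27 by limma-voom (HSPB1 0.051) and 0.13 with the replicate block. Quality weights gave HSPA1B -0.35 and HSPH1 -0.23, and HSPA1A and HSPA1B summed gave -0.24. With 1 library left out the values spanned -0.39 to 0.28 for HSPA1B, -0.59 to 0.15 for HSPB1, -0.44 to 0.27 for DNAJB1, -0.28 to 0.20 for HSPH1. In rescue minus control HSPD1 was 0.023 by library size alone, 0.0016 with the 1 CPM filter, 9.2e-05 by limma-voom, 0.014 with quality weights, 0.0027 with only 2 groups, 6.4e-04 with pseudogene counts added and -0.026 to 0.031 with 1 library left out.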
